A study of Mus musculus with 6 samples.

Results

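Interferon and nucleic acid sensing genes were compared between mouse induced pluripotent stem cells (iPSCs) with and without serum response factor (SRF). Such cells are differentiated cells turned back to pluripotency. The set holds 36 genes, chosen by name from the 24421 gene entries of the count table: RNA and DNA sensors, IRF and STAT transcription factors, interferon receptor chains and interferon-stimulated genes. All 36 were present in the table and all passed the filter on low counts. Bulk RNA sequencing libraries came from 3 replicates of iPSCs with the Srf gene deleted on both alleles (SRFΔ/Δ, called SRF KO) and from 3 replicates of iPSCs carrying the intact conditional allele on both (SRFf/f, called WT). Both lines were grown in a medium with serum. The labels name neither the Cre used, the number of clones nor feeder cells, and they do not say whether replicates were separate cultures, so that p-values measure only the spread between these libraries.

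Cells detect viral or misplaced nucleic acid with a small number of receptors. RIG-I (Ddx58), MDA5 (Ifih1) and TLR3 bind double-stranded RNA, and cGAS binds cytosolic DNA. Their signals pass through the adaptors MAVS, TRIF and STING and the kinase TBK1 to the factors IRF3 and IRF7, which switch on interferon genes. Secreted type I interferon binds the receptor IFNAR1/IFNAR2, and a complex that holds STAT2 and IRF9 then binds the interferon-stimulated response element (ISRE) of many antiviral genes. Mouse pluripotent stem cells are known to make little interferon and to respond weakly to it, while keeping some antiviral genes, such as those of the IFITM family, at a steady level.

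Total counts were between 26321602 and 36680156 per library, and no member was at or under 3 counts in any library. The lowest member count was 5, for Usp18 in WT replicate 2. Srf, which checks the labels, was counted 113, 84 and 131 times in SRF KO and 1326, 765 and 1066 times in WT, a log2 fold change of -3.12 (SE 0.13). Among WT libraries, replicate 2 stood farthest from the others, with a chi-square per degree of freedom of 12.9 and 15.3 against them, and 3.81 between the other two. Levels are given as CPM, the share of a library's counts scaled to a common total by the trimmed mean of M values (TMM). Differences are log2 ratios, positive where SRF KO was higher, with a standard error (SE). The adjusted p comes from the quasi-likelihood test of edgeR after Benjamini-Hochberg adjustment over every entry tested, and its threshold was 0.05.

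The promoters of the members were examined for the letters of the ISRE, the element through which interferon acts on many of them. The core searched was GAAA, any 2 bases and GAAA, on either strand, in the 250 bases before each RefSeq gene start (GRCm38.p6). RefSeq starts were matched for 33 of 36 members, all but Dhx58, Zbp1 and Usp18. The core was present at 10 of the 33, against 3.46% of 27025 genes. By call, it was present at 6 of 12 matched members that rose, 3 of 7 that fell and 1 of 14 that did not pass the threshold. By role, it was present at 7 of 13 matched interferon-stimulated effectors, 2 of 6 IRF and STAT factors and 1 of 4 antigen presentation genes. It was at 0 of 5 matched sensors and adaptors, 0 of 3 genes that restrain sensing and 0 of 2 receptor chains. Call and role were not separated. The 6 windows of risen members follow, chosen by their call, each with up to 20 bases on either side, 5′ to 3′ on the strand of the gene, with the core in capitals.
B2m: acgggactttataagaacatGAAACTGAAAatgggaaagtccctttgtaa
Rsad2: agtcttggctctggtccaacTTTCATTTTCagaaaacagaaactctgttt
Ifit3: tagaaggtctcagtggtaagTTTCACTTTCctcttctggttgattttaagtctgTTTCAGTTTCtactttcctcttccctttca
Ifit1: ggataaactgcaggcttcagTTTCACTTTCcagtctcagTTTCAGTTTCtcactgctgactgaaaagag
Irf2: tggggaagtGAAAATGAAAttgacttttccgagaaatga
Isg15: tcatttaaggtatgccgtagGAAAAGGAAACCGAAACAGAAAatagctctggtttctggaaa
Stat2: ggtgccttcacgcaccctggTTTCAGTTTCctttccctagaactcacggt
Stat2 is shown, chosen after its values were seen, as a member with the same core that fell.

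The windows lay at chr2:122147528-122147577 (plus strand) for B2m, chr12:26456543-26456592 (minus) for Rsad2, chr19:34583353-34583436 (plus) for Ifit3 and chr19:34640765-34640833 (plus) for Ifit1. Those of Irf2, Isg15 and Stat2 lay at chr8:46739495-46739533 (plus), chr4:156200855-156200916 (minus) and chr10:128270256-128270305 (plus). The Irf2 window overlapped an annotated exon of Gm16675, and the others of these 7 overlapped no annotated exon. The windows of the fallen members Gbp2 and Ifitm2, counted above but not shown, overlapped annotated exons of their own genes. Ifit1 and Ifit3 each held 2 separate cores, and Isg15 held 3 overlapping ones. The gamma-activated site, searched as TTC, any 3 bases and GAA, was present at 9 of 33 members, against 8.13% of all genes. It was found at 3 of 12 members that rose, 2 of 7 that fell and 4 of 14 that did not pass the threshold. The windows of Irf2, Psmb8 and Eif2ak2 for this site overlapped annotated exons of Gm16675, Psmb8 and Gm26637. At Bst2 the site overlapped the ISRE core. The CArG box, the sequence SRF binds, was present at 0 of 33 members and at 1.62% of all genes. At so low a share a set of 33 would often hold none, so that this search could not show a lack of the box. These matches describe letters in a window and not binding.

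SRF KO cells had higher RNA of 13 members and lower RNA of 8, while 15 did not pass the threshold. The rises were led by Usp18, which damps interferon signalling, and the antiviral effectors Ifit1, Rsad2 and Ifit3, all at about 3 times the WT level. Their mean WT levels were low, at 0.3, 1.09, 1.03 and 0.675 CPM. The SEs of their log2 fold changes, 0.36, 0.20, 0.16 and 0.19, leave the order among them unsettled. The falls were led by Ifitm1, whose WT level was 3.49-fold higher. Thus 21 of 36 members were called, against 42.4% of all 14778 genes tested. By direction these were 13 higher against a background of 21.2% of genes and 8 lower against 21.3%. Of the 36, 11 were called and differed by 1 or more on the log2 scale, against 7.29% of all genes, of which 9 rose and 2 fell. The median log2 fold change over the members was 0.07, near the -0.01 of all genes tested, but the median absolute value was 0.50 against 0.21. The 3 SRF KO values lay above the 3 WT values for 13 members (background 26.2%) and below them for 9 (background 26.5%), and the groups overlapped for 14 of 36, where 52.7% of all genes had no overlap in either direction. Libraries were made from bulk RNA, in which a change in the number of cells of a type and a change in RNA per cell cannot be told apart.

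**Figure D1:**
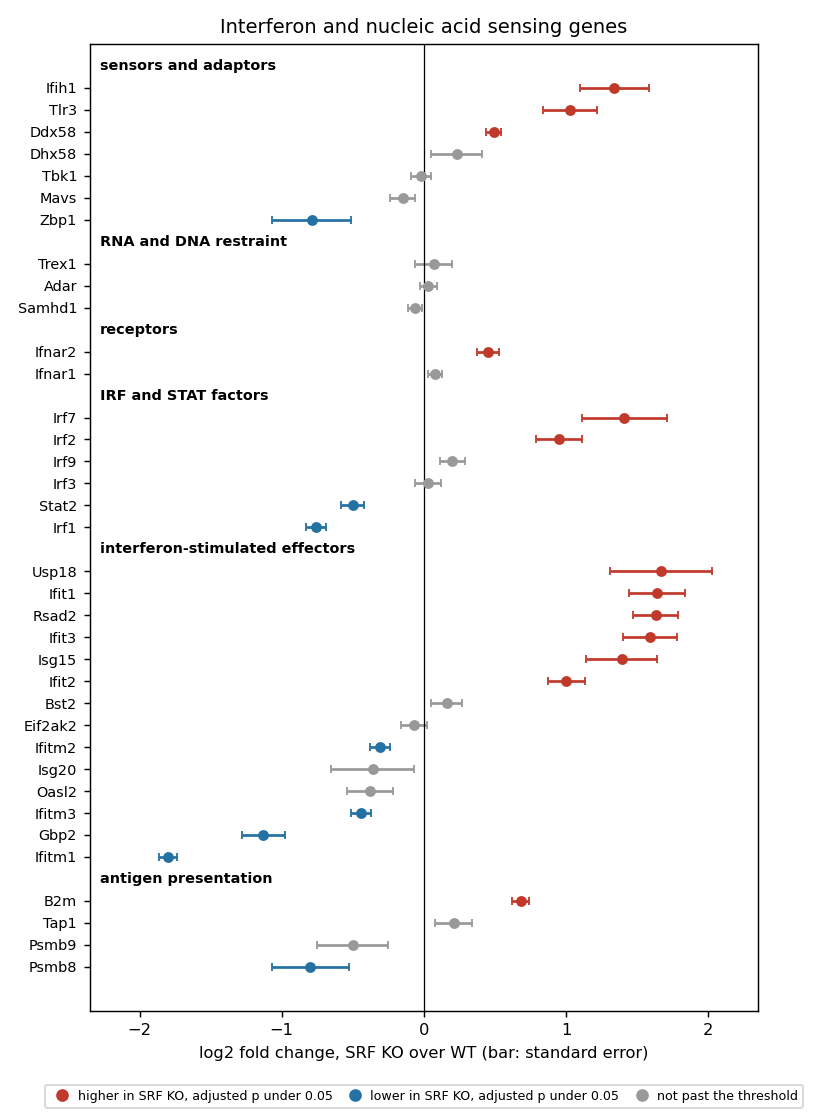
Log2 fold change of SRF KO over WT for each of the 36 members, grouped by role, with the SE as a bar; red points were higher and blue points lower at an adjusted p under 0.05. Effectors span the widest range, from 1.67 for Usp18 to -1.80 for Ifitm1, while the 3 genes that restrain sensing lie close to 0.

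The interferon genes themselves were at or near 0. Of 11 ligand genes looked up (Ifnb1, Ifna1, Ifna2, Ifna4, Ifna5, Ifna6, Ifne, Ifng, Ifnk, Ifnl2 and Ifnl3), 10 had 0 counts in all 6 libraries, and Ifnk had 1 count in SRF KO replicate 1 and 0 elsewhere. With 0 counts a level of up to 3 counts remains possible from counting error alone, or 0.0828 to 0.117 CPM depending on the library. No ligand passed the filter, so that none was tested.

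Of the 2 receptor chains, 1 rose (50%, against 21.2% of all genes), and the difference between the chains was not tested. Ifnar2, one chain of the type I interferon receptor, was at 11.6, 12.6 and 11.7 CPM in SRF KO and 8.26, 9.06 and 9.03 CPM in WT. The groups did not overlap, and it rose by 0.45 (SE 0.08, edgeR adjusted p 0.00121). Ifnar1, the other chain, was at 50.1, 50.2 and 48.5 CPM in SRF KO and 46.6, 48.9 and 45.3 CPM in WT. These groups overlapped, at a log2 ratio of 0.08 (SE 0.05, edgeR adjusted p 0.269).

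Among the 7 sensors and adaptors, 3 receptors of double-stranded RNA rose and 1 gene fell (42.9% and 14.3%, against 21.2% and 21.3% of all genes). Ddx58 (RIG-I; ENSMUSG00000040296.15), a cytosolic helicase that senses short RNA with a 5′ triphosphate, was in SRF KO the most abundant of the 7 per kilobase. It was at 63.5, 64.1 and 62.2 CPM in SRF KO and 45.4, 45.1 and 44.6 CPM in WT, a rise of 0.49 (SE 0.05, edgeR adjusted p 1.3e-05). The libraries of each group lay close together and the groups were well apart. Ifih1 (MDA5), the helicase for long double-stranded RNA, was at 1.90, 1.51 and 2.56 CPM in SRF KO and 0.690, 0.933 and 0.767 CPM in WT. It rose by 1.34 (SE 0.24, edgeR adjusted p 0.00085), and the highest value was that of SRF KO replicate 3. Tlr3, the endosomal receptor of double-stranded RNA, was at 1.52, 1.70 and 1.80 CPM in SRF KO and 0.828, 0.739 and 0.871 CPM in WT, a rise of 1.03 (SE 0.19, edgeR adjusted p 0.00093). Each of the 3 rises held with every library left out in turn.

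Zbp1, a sensor of Z-form nucleic acid that can trigger necroptosis, was the sensor called lower, at -0.79 (SE 0.28, edgeR adjusted p 0.0417). It was at 0.557, 0.642 and 1.04 CPM in SRF KO and 1.21, 1.75 and 1.01 CPM in WT, so that SRF KO replicate 3 lay above WT replicate 3. The call was lost on leaving out replicate 1 or 2 of SRF KO (-0.63 and -0.69) or replicate 1 or 2 of WT (-0.86 and -0.57), and under DESeq2 (-0.81) and total count scaling (-0.76). Over the alternatives its adjusted p reached 0.152. The remaining members of this group did not pass the threshold. Mavs, the mitochondrial adaptor of both helicases, had a log2 fold change of -0.15 (SE 0.09), and Tbk1, the kinase that phosphorylates IRF3, had -0.02 (SE 0.07). Dhx58 (LGP2), a helicase that modulates the other two, had 0.23 (SE 0.18). Without WT replicate 2, Mavs passed the threshold at -0.22 (edgeR adjusted p 0.0311).

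The 3 genes that keep a cell's own nucleic acid from being sensed had small differences. Adar, which edits adenosine to inosine in double-stranded RNA, was at 69.9, 64.6 and 68.1 CPM in SRF KO and 65.7, 63.1 and 69.1 CPM in WT, and differed by 0.03 (SE 0.06, edgeR adjusted p 0.660). Samhd1, which breaks down deoxynucleotides, was at 68.3, 69.5 and 69.7 CPM in SRF KO and 73.0, 70.7 and 72.8 CPM in WT. Its groups did not overlap, yet the difference of -0.06 (SE 0.05, edgeR adjusted p 0.330) did not pass the threshold. Trex1, a DNA exonuclease, had 0.07 (SE 0.13, edgeR adjusted p 0.704). Of the stretches of 150 bases, the read length, in its GENCODE transcripts, 91.3% also occur in transcripts of the overlapping gene Atrip, so that its counts depend on how shared reads were assigned.

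The transcription factors moved in both directions, 2 up and 2 down of 6 (33.3% each, against 21.2% and 21.3% of all genes). Irf7, which amplifies the interferon response and is itself interferon-induced, was at 0.632, 0.755 and 1.07 CPM in SRF KO and 0.331, 0.272 and 0.314 CPM in WT. It rose by 1.41 (SE 0.30, edgeR adjusted p 0.00304), from at most 12 counts in a WT library. Irf2, a factor that often represses ISRE-driven genes, was at 2.56, 3.14 and 2.56 CPM in SRF KO and 1.33, 1.55 and 1.39 CPM in WT, a rise of 0.95 (SE 0.16, edgeR adjusted p 0.00063). Irf1, which activates many of the same genes and those of antigen presentation, went the other way. It was at 14.8, 16.1 and 15.5 CPM in SRF KO and 26.4, 24.9 and 27.1 CPM in WT, and fell by 0.76 (SE 0.07, edgeR adjusted p 6.7e-06).

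Stat2, the STAT particular to the interferon receptor complex, was at 21.3, 25.2 and 21.0 CPM in SRF KO and 33.6, 30.8 and 30.9 CPM in WT. It fell by 0.50 (SE 0.08, edgeR adjusted p 0.00046), and the groups did not overlap. Its partner Irf9 differed by 0.20 (SE 0.09, edgeR adjusted p 0.114), with WT replicate 2 at 13.5 CPM inside the SRF KO range of 13.3 to 13.7 CPM. Without that library it passed the threshold at 0.30 (edgeR adjusted p 0.00372). Irf3, the factor downstream of the sensors, was at 21.2, 19.4 and 19.0 CPM in SRF KO and 19.9, 16.9 and 21.6 CPM in WT, with a log2 difference of 0.03 (SE 0.09, edgeR adjusted p 0.843).

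Of the 14 interferon-stimulated effectors, 6 rose and 4 fell (42.9% and 28.6%, against 21.2% and 21.3% of all genes). The IFIT genes encode antiviral proteins. Those of the set lie in one region of chromosome 19 in the GENCODE M21 annotation of GRCm38, with other genes between Ifit3 and Ifit1. Ifit2 spans 34550694 to 34576419, Ifit3 34583531 to 34588731 and Ifit1 34640871 to 34650009. Ifit1 was at 2.97, 3.06 and 4.25 CPM in SRF KO and 1.24, 1.13 and 0.906 CPM in WT, a rise of 1.64 (SE 0.20, edgeR adjusted p 5.2e-05) or 3.12-fold. Ifit3 was at 2.04, 2.04 and 2.04 CPM in SRF KO and 0.690, 0.777 and 0.558 CPM in WT, a rise of 1.59 (SE 0.19, edgeR adjusted p 4.3e-05). Ifit2 was at 4.76, 5.97 and 4.98 CPM in SRF KO and 2.60, 2.84 and 2.41 CPM in WT, a rise of 1.0 (SE 0.13, edgeR adjusted p 0.00012). In all 3 genes every SRF KO library was above every WT library, which also held for 26.2% of all genes. Of the read-length stretches of Ifit3, 18.5% also occur in the nearby gene Ifit3b, which makes the split between these genes uncertain. Ifit3b, chosen after its values were seen, had 18, 28 and 19 counts in SRF KO and 2, 3 and 10 counts in WT, and rose by 2.22 (SE 0.47, edgeR adjusted p 0.0027), or by 3.22 without WT replicate 3.

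The other risen effectors had mean SRF KO levels between 1.02 CPM (Usp18) and 3.19 CPM (Rsad2). Rsad2 (viperin), an enzyme that makes a chain-terminating nucleotide, was at 2.94, 3.25 and 3.39 CPM in SRF KO and 0.994, 1.01 and 1.08 CPM in WT, a rise of 1.63 (SE 0.16, edgeR adjusted p 8.0e-06). Isg15, a ubiquitin-like modifier, was at 1.52, 2.23 and 2.11 CPM in SRF KO and 0.552, 1.05 and 0.697 CPM in WT, a rise of 1.39 (SE 0.25, edgeR adjusted p 0.00092). Usp18, which removes ISG15 from proteins and damps receptor signalling, had 21, 35 and 28 counts in SRF KO and 18, 5 and 6 counts in WT. It rose by 1.67 (SE 0.36, edgeR adjusted p 0.00289), and by 2.31 without WT replicate 1, the WT library with the most counts of it. The 9 members that rose by 1 or more on the log2 scale had mean SRF KO levels between 0.820 CPM (Irf7) and 5.23 CPM (Ifit2).

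**Figure D2:**
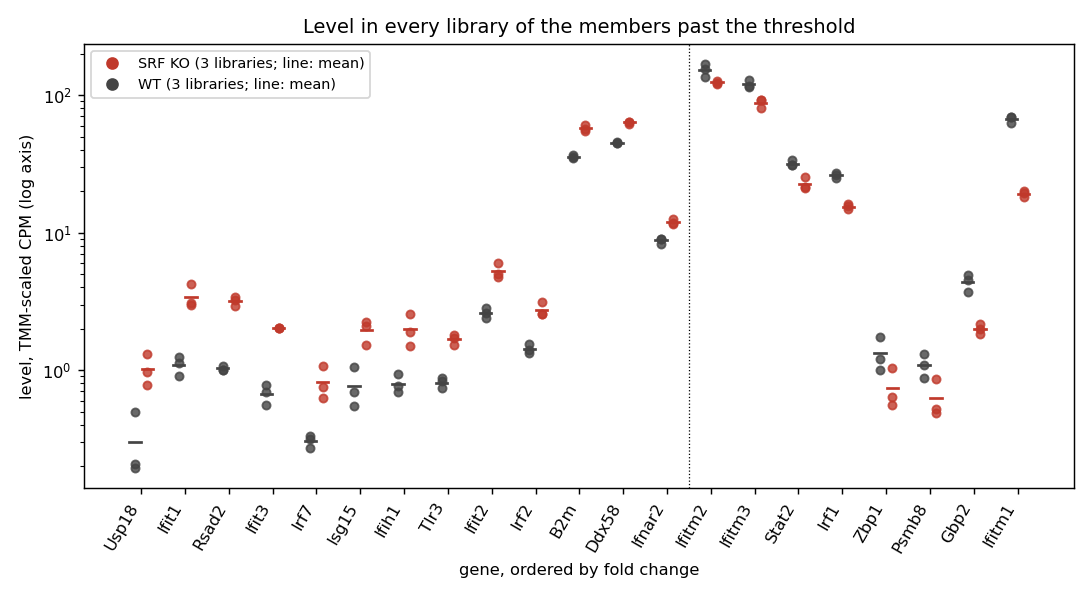
Level of the 21 members past the threshold in each of the 3 SRF KO (red) and 3 WT (grey) libraries, in TMM-scaled CPM on a log axis, ordered by fold change, with short lines at the means and a dotted line between the 13 rises and the 8 falls. The 9 rises of 1 or more on the log2 scale have mean SRF KO levels of at most 5.23 CPM, and Zbp1 is the gene whose groups overlap.

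The 3 IFITM genes of the set, which encode small membrane proteins that block virus entry, fell together. They lie in one region of chromosome 7 (GRCm38), with Ifitm2 at 140954837 to 140955987, Ifitm1 at 140967221 to 140969825 and Ifitm3 at 141009586 to 141010770. Ifitm1, also known as a surface protein of early embryonic and germ cells, was at 20, 18.3 and 19.3 CPM in SRF KO and 69.0, 62.7 and 68.8 CPM in WT. It fell by 1.80 (SE 0.06, edgeR adjusted p 2.5e-09). Ifitm3 was at 92.1, 80.3 and 91.8 CPM in SRF KO and 117, 114 and 128 CPM in WT, and fell by 0.44 (SE 0.07, edgeR adjusted p 0.00025). Ifitm2 was at 127, 121 and 123 CPM in SRF KO and 155, 135 and 168 CPM in WT, and fell by 0.31 (SE 0.07, edgeR adjusted p 0.00442). None of the 3 overlapped between groups, and 26.5% of all genes likewise lay lower without overlap. All 3 falls held with every library left out. Of the read-length stretches of Ifitm2, 23.5% also occur in Gm45717, while Ifitm1 and Ifitm3 shared none with another gene's transcripts. Outside the set, Ifitm5 did not pass the threshold (-0.53, SE 0.32, edgeR adjusted p 0.229) and Ifitm6 did not pass the filter, both chosen after their values were seen.

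Gbp2, a guanylate-binding GTPase best known as a target of interferon gamma, was at 1.82, 2.0 and 2.18 CPM in SRF KO and 4.53, 3.69 and 4.92 CPM in WT. It fell by 1.13 (SE 0.15, edgeR adjusted p 0.00011), without overlap. The remaining 4 effectors did not pass the threshold. Oasl2, a relative of the oligoadenylate synthetases, had -0.38 (SE 0.16, edgeR adjusted p 0.0750), with all SRF KO libraries below all WT libraries. Bst2 (tetherin), which holds budding virus at the cell surface, was at 32.3, 27.4 and 34.4 CPM in SRF KO and 29.7, 23.7 and 30.7 CPM in WT, at a log2 ratio of 0.16 (SE 0.11, edgeR adjusted p 0.249). Eif2ak2 (PKR), the kinase that stops translation on double-stranded RNA, had -0.07 (SE 0.09). Isg20, an RNA exonuclease, had -0.36 (SE 0.29), which became -0.06 without WT replicate 1.

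Of the 4 antigen presentation genes, 1 rose and 1 fell (25% each, near the 21.2% and 21.3% of all genes). B2m, the light chain of class I molecules, was at 56.9, 54.7 and 60.5 CPM in SRF KO and 35, 37 and 35.3 CPM in WT, a rise of 0.68 (SE 0.06, edgeR adjusted p 3.7e-06) or 1.61-fold. Psmb8, a subunit of the immunoproteasome, had 14, 13 and 25 counts in SRF KO and 47, 28 and 25 counts in WT and was lower by the test, at -0.80 (SE 0.27, edgeR adjusted p 0.0341). In CPM the groups were close, with SRF KO replicate 3 at 0.864 and WT replicate 3 at 0.871. The Psmb8 call was lost on leaving out replicate 1 of SRF KO (-0.68), replicate 2 of SRF KO (-0.65) or replicate 1 of WT (-0.62), and under DESeq2 (-0.79), with adjusted p up to 0.151. Psmb9, another immunoproteasome subunit, had -0.50 (SE 0.25, edgeR adjusted p 0.124) or -0.27 with SRF KO replicate 2 left out. Without replicate 3 of SRF KO it passed the threshold at -0.77 (edgeR adjusted p 0.0498). Tap1, a peptide transporter chain that shares the region on chromosome 17 with both, had 0.21 (SE 0.13, edgeR adjusted p 0.237), and 0.08 without WT replicate 2.

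The order of the members by level was taken per kilobase of exon. In WT, Ifitm2 was first at 234 ± 25.3 CPM per kilobase, followed by Ifitm3 at 177 ± 10.8, Ifitm1 at 61.1 ± 3.29, B2m at 41.6 ± 1.28 and Bst2 at 35.4 ± 4.79 (SD, n = 3). In SRF KO, Ifitm2 and Ifitm3 were again first at 189 ± 4.63 and 129.9 ± 9.85, followed by B2m at 66.7 ± 3.41, Bst2 at 39.6 ± 4.56 and Ifitm1 at 17.5 ± 0.802 CPM per kilobase (SD, n = 3). Ifitm1 thus moved from the third to the fifth place. Below these, Ddx58 at 16.3 ± 0.257, Ifnar1 at 12.7 ± 0.249, Samhd1 at 12.6 ± 0.144 and Tbk1 at 12.5 ± 0.189 CPM per kilobase followed in SRF KO (SD, n = 3). The last 3 of these were within the spread of one another. The lowest mean in both groups was that of Irf7, at 0.343 ± 0.0948 in SRF KO and 0.128 ± 0.0127 CPM per kilobase in WT (SD, n = 3). It was within the spread of Zbp1 at 0.345 ± 0.118 and Isg20 at 0.346 ± 0.0437 in SRF KO, and of Ifih1 at 0.146 ± 0.0227 in WT (SD, n = 3).

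**Figure D3:**
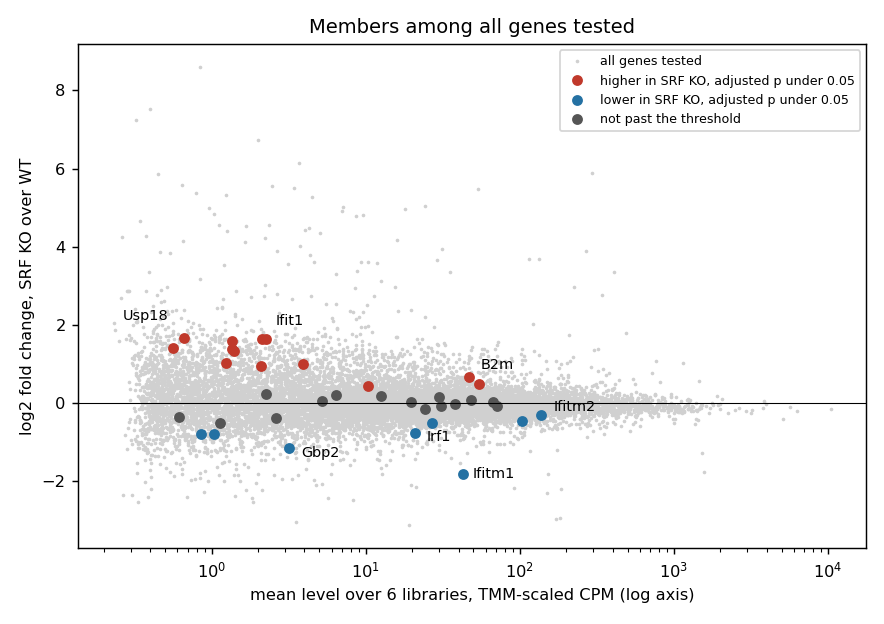
Log2 fold change of SRF KO over WT against the mean level over the 6 libraries (TMM-scaled CPM, log axis) for 14778 genes, with the 36 members in red (higher), blue (lower) and dark grey (not past the threshold). The large rises, such as Ifit1 at 1.64, lie at the low end of the level axis, while Ifitm1 at -1.80 lies at a higher level.

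To see whether the pathway beyond the members differed too, 106 further genes were taken by name, of which 89 passed the filter. Of these, 34 rose and 14 fell, that is 48 of 89 against the background of 42.4%, with a median log2 fold change of 0.06. Other sensors and adaptors had 10 of 23 higher and 4 lower (43.5% and 17.4%, against 21.2% and 21.3% of all genes). Myd88, the adaptor of most Toll-like receptors, rose from 8.78 ± 0.548 to 12.8 ± 0.568 CPM, and the DNA sensor Ifi204 from 2.60 ± 0.544 to 5.21 ± 0.766 CPM (SD, n = 3). The log2 differences were 0.54 and 1.02 (edgeR adjusted p 0.00035 and 0.00046). The cGAS gene, listed as Mb21d1, rose by 0.81 (SE 0.15, edgeR adjusted p 0.00129), and its partner STING, listed as Tmem173 and chosen after its values were seen, by 1.02 (SE 0.19, edgeR adjusted p 0.00135). Oas3, which makes the activator of RNase L, fell from 3.98 ± 0.489 to 1.95 ± 0.348 CPM (SD, n = 3), which is -1.04 on the log2 scale (edgeR adjusted p 0.00038).

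Other receptors and JAK-STAT genes had 7 of 12 higher and 2 lower (58.3% and 16.7%, against 21.2% and 21.3% of all genes). Both chains of the interferon gamma receptor, Ifngr1 and Ifngr2, rose by 0.50 and 0.57 (edgeR adjusted p 0.00376 and 0.00011). Il10rb, a chain shared with the lambda interferon receptor, rose by 0.84 (edgeR adjusted p 0.00011). Irf8, a factor of myeloid cells and interferon gamma signalling, fell from 5.21 ± 0.371 to 2.58 ± 0.139 CPM (SD, n = 3), which is -1.02 on the log2 scale (edgeR adjusted p 5.1e-05). Of 14 negative regulators and nucleases, 1 rose and 2 fell, so that 21.4% were called against 42.4% of all genes. Rnaseh2b, a subunit of the enzyme that removes RNA from DNA, fell by 0.48 and Socs3, a feedback inhibitor, by 0.26, while the phosphatase Ptpn11 rose by 0.19 (edgeR adjusted p 9.3e-05, 0.00508 and 0.00651). The Ptpn11 call was lost without SRF KO replicate 1 (0.17, edgeR adjusted p 0.0502).

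Further interferon-stimulated genes had 11 of 28 higher and 2 lower (39.3% and 7.14%, against 21.2% and 21.3% of all genes). In all 46.4% of them were called, near the 42.4% of all genes. Shisa5 rose from 21.4 ± 1.72 to 46.6 ± 3.60 CPM, Lgals3bp, a secreted glycoprotein, from 5.78 ± 0.807 to 13.5 ± 2.47 CPM, Ifi27 from 2.59 ± 0.246 to 6.70 ± 1.18 CPM and Trim30a from 1.26 ± 0.159 to 3.43 ± 0.402 CPM (SD, n = 3). Their log2 fold changes were 1.12, 1.22, 1.37 and 1.44. Of the other antigen presentation genes, 5 of 12 rose and 4 fell (41.7% and 33.3%, against 21.2% and 21.3% of all genes). The chaperones Calr and Pdia3, which also fold many other proteins, rose by 0.54 and 0.48, and the proteasome activator subunits Psme1 and Psme2 fell by 0.40 and 0.61 (edgeR adjusted p 6.5e-06, 7.5e-05, 0.00013 and 2.5e-05). The class I heavy chain H2-D1 rose by 0.64 (edgeR adjusted p 0.00048) and H2-K1 had -0.14 (edgeR adjusted p 0.151), both chosen after their values were seen. H2-K1 passed the threshold without WT replicate 2 at -0.21 (edgeR adjusted p 0.00498). Class I genes are close paralogs, and the sequence that H2-D1 and H2-K1 share with other genes was not measured, so that their single values are uncertain.

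**Figure D4:**
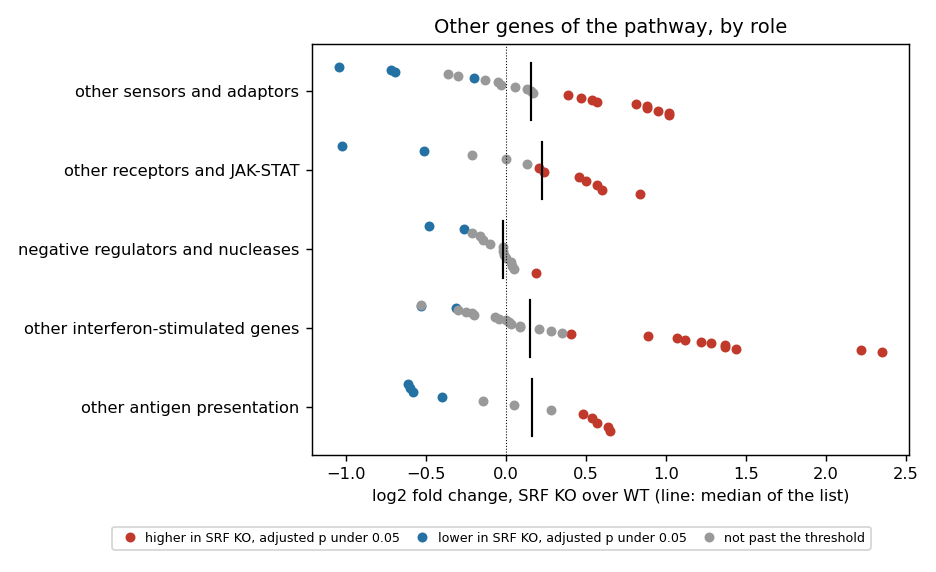
Log2 fold change of SRF KO over WT for the 89 tested genes of the pathway that are not members, by role, with a black line at each list's median. Medians range from -0.02 for negative regulators and nucleases to 0.23 for receptors and JAK-STAT genes, and each of the 5 lists holds genes on both sides of 0.

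Markers of other cell types moved with the comparison, those of immune cells only in part. Summed over 10 pluripotency markers, the level was between 5400.0 and 5522.1 CPM in SRF KO and between 6278.3 and 6757.4 CPM in WT. Of the 10, 1 rose and 4 fell (10% and 40%, against 21.2% and 21.3% of all genes). Pou5f1 and Sox2, which define the pluripotent state, were at 773 ± 11.3 and 411 ± 25.2 CPM in SRF KO and 818 ± 52.4 and 468 ± 42.9 CPM in WT (SD, n = 3), and neither passed the threshold. Nanog fell by 0.79, Esrrb by 0.49, Dppa5a by 0.42 and Tdgf1 by 0.20, and Zfp42 rose by 0.17 (edgeR adjusted p 1.1e-07, 7.4e-06, 0.00015, 0.0111 and 0.0312). All 12 fibroblast markers rose, with a median of 1.16 and summed levels of 957 to 1142.5 CPM in SRF KO and 470.5 to 526 CPM in WT. All 10 extraembryonic endoderm markers rose, with a median of 3.67 and sums of 1569.4 to 1688.9 CPM against 128 to 140.0 CPM. Of 10 immune cell markers, 9 were tested and 4 rose (44.4%, against 21.2% of all genes), with a median of 0.63. Over the 10, sums were 152 to 192 CPM in SRF KO and 106 to 119 CPM in WT. Lyz2, chosen after its values were seen, alone held 118 to 149 CPM of this in SRF KO and 79.0 to 90.2 CPM in WT. None of these markers was at 0 in all libraries. The log2 fold changes of the risen members were 0.45 to 1.67. Those of the fibroblast markers, 0.81 to 1.46, and of the tested immune cell markers, 0.09 to 0.94, overlap this range. Those of the extraembryonic endoderm markers, 2.76 to 5.88, lay above it. The part of other cell types in the rises was not tested.

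**Figure D5:**
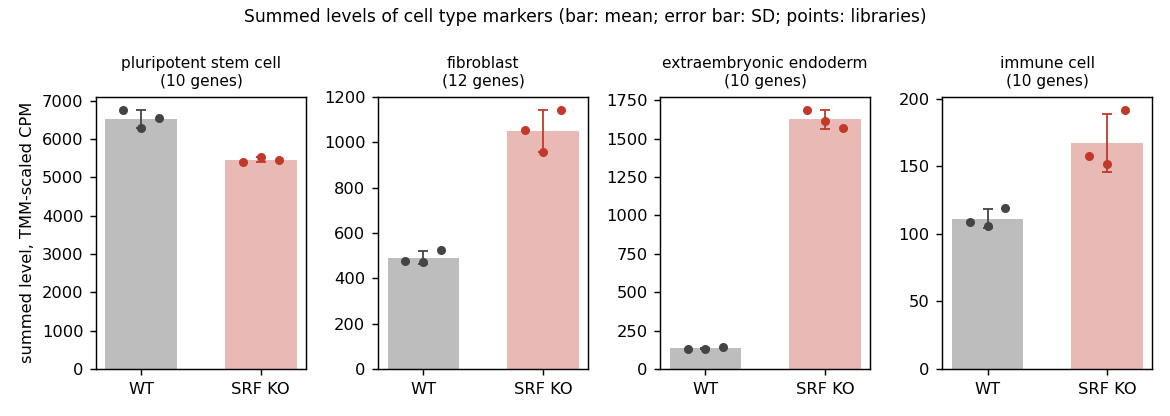
Summed level of 4 lists of cell type markers in WT (grey) and SRF KO (red), with bars at the mean of 3 libraries, error bars for the SD and points for the libraries, in TMM-scaled CPM from 0. The fibroblast, extraembryonic endoderm and immune cell sums lie above WT in every SRF KO library, and the pluripotency sum lies below.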

How the data were processed

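Per the labels' protocols, total RNA of mouse iPSCs was sequenced as paired reads of 150 bases, and the authors trimmed adaptors and dropped poor or empty reads. The submitters' processing notes name the build mm10 and DESeq2 without a role. The aligner, counting program, annotation and strand setting are not given in the sources used here. Values in the authors' deposited table are whole-number counts per gene and per transposable element subfamily, not normalized, judged from its values. Its 6 columns were matched to samples by name.

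Of 25567 entries, the 15611 that passed edgeR's filterByExpr (minimum count of 10), among them 14778 genes, were fitted together in R 4.3.3 with TMM scaling and edgeR's quasi-likelihood test (edgeR 4.0.16). Adjusted p-values use Benjamini-Hochberg over all of these entries. The SE is the absolute log2 fold change divided by the square root of F. The script was tested on simulated counts. No replicate pair agreed within sampling noise (chi-square per degree of freedom from 1.83 to 15.3). Positions and exon lengths (union of GENCODE M21 basic exons) and shared stretches of 150 bases come from GENCODE M21, and promoter sequences from RefSeq, both on GRCm38, the assembly of mm10. Alternatives were DESeq2 1.42.0, other scalings and filters, stricter thresholds, a replicate block and leaving out each library.

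The members, lists and tests were chosen with earlier results of these data known. Values in every library are given for members past the threshold that differed by 0.5 or more on the log2 scale or are among the 6 highest levels per kilobase, and for others where a comparison needs them. Of the other pathway genes, up to 4 per list with the smallest p are named. Genes named outside these rules are marked as chosen after their values were seen.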

Additional observations from a re-analysis of the deposited data

How the results depend on the processing

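The number of members higher was 13 as reported and between 13 and 14 when one library was left out, and the number lower was 8 and between 6 and 9. The median over members was between 0.06 and 0.12 in those fits. For the other genes of the pathway, those higher were between 26 and 36, those lower between 12 and 19 and the median between 0.05 and 0.14, with 0.14 without WT replicate 2, and the cause was not tested. A further requirement of a log2 difference of 1 or more, which lowers counts by construction, left 9 members higher and 2 lower and 11 other pathway genes higher and 2 lower. DESeq2 called 13 members higher and 6 lower, and all 19 were also called by edgeR with the same sign. Total count scaling moved the median of all genes from -0.013 to 0.024 and called 20 members.

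Among single members, 445 comparisons with an alternative kept direction and call, 12 were weaker, all of Zbp1 or Psmb8, 5 were stronger and 6 reversed. The reversed ones had fold changes near 0. Tbk1 was at 0.02 under total count scaling and 0.05 without WT replicate 2, Trex1 at -0.01 (SRF KO replicate 3 left out) and -0.03 (WT replicate 2 left out), and Irf3 at -0.02 (SRF KO replicate 1 left out) and -0.06 (WT replicate 2 left out). With one library left out, Tbk1 ranged from -0.07 to 0.05, Trex1 from -0.03 to 0.16 and Irf3 from -0.06 to 0.11. At an adjusted p under 0.01, Zbp1 and Psmb8 were no longer called.

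Deviations from the group mean correlated at 0.0531, 0.275 and 0.144 for replicates of equal number in the 2 groups. For unequal numbers the correlations were between -0.278 and 0.168. These values do not settle whether equal numbers mark pairs, and the reported fit held no block. A fit with the block called 7512 of 14778 genes, against 6273 without it. With a replicate block, 14 members were higher and 9 lower, and Oasl2 (-0.38, edgeR adjusted p 0.0361) and Bst2 (0.16, edgeR adjusted p 0.0268) passed the threshold; all 21 reported calls remained. With the block, 35 other pathway genes were higher and 19 lower. Depth limits members such as Usp18 and Irf7, with 5 and 7 counts in WT replicate 2.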
